A study of Mus musculus with 16 samples.

Results

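The genes described here are 10 components of the mammalian circadian clock, chosen by name: Clock, Per1, Per2, Per3, Cry1, Cry2, Ciart, Nr1d1, Nr1d2 and Dbp. All 10 were found among the 40840 genes of the count table. They also passed the filter of at least 10 counts over all 16 libraries, which left 20444 genes for testing. The counts come from mRNA sequencing of p53-/-; Myc hepatoblasts, a mouse cell line that has lost p53, overexpresses Myc and serves as a model of hepatocellular carcinoma. Cells received 8.5 µM sorafenib, an inhibitor of several kinases, or DMSO as the vehicle, and exposure lasted 48 hours or 7 days, which gave 4 groups of 4 libraries. The loss of p53 and the raised Myc are traits of the line, shared by all groups, DMSO included, and everything was measured in 1 cell line. The Myc level itself differed between groups, as given below. The labels number the replicates 1 to 4 but do not say that these were separate cultures, so p-values measure the spread between these libraries, which may be technical. The hour of the day at which cells were harvested is not given in the sources used here, so a difference in clock phase cannot be told apart from an effect of drug or of time. In bulk RNA, fewer expressing cells and less RNA per cell cannot be told apart either.

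The clock is a feedback loop in which CLOCK pairs with BMAL1 (gene symbol Arntl) and activates genes through E-box sequences. Among the activated genes are the Period and Cryptochrome genes and Ciart, whose proteins return to the nucleus and inhibit the CLOCK and BMAL1 pair. In a second loop the nuclear receptors REV-ERBα (Nr1d1) and REV-ERBβ (Nr1d2) repress, and the ROR receptors activate, Arntl and other genes. DBP is a PAR bZIP factor, itself an output of the CLOCK and BMAL1 pair, that activates genes with D-box sequences, where NFIL3 represses. In liver the clock sets the daily rhythm of many metabolic genes, and cells in culture drift out of phase with each other unless they are synchronized.

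Libraries held between 16586254 and 30828427 counts. In Sorafenib_48h replicate 2 counts stepped down by 0.73 on the log2 scale from chromosome 14 position 121272534 to the end of the genome order. None of the 10 clock genes lies after that point, and this library was the highest of its group for 7 of the 10 genes. At 48 hours 9 clock genes passed the test with this library (54.6% of all genes), without it (57%) and with an offset for the step (58.4%). The offset lowered the 48-hour log2 fold change of all 10 genes, Clock from 0.81 to 0.77 and Nr1d1 from -0.48 to -0.53. Other libraries stood apart too, by the chi-square per gene between 2 replicates. It was 41.4 to 55.0 for DMSO_7d replicate 4 against its group and 27.0 to 30.7 for Sorafenib_48h replicate 2. In DMSO_48h it was 4.2 for replicates 1 and 4, 4.8 for 2 and 3, and 14.5 to 32.7 for the other pairs. The source of these differences was not tested. Of the marker genes checked, the hepatoblast gene Dlk1 and the bile duct genes Krt19, Krt7 and Sox9 were expressed, and several moved with the drug. Dlk1 had group means of 32233.8 normalized counts in DMSO and 10443.9 with sorafenib at 48 hours, and 16766.0 and 4020.2 at 7 days, and Krt7 had 1877.1 and 489.9, then 3643.4 and 111.3. Krt8, Krt18 and Epcam were also lower with sorafenib, and Sox9 was higher. Krt7, Krt8, Krt18 and Epcam lie after the step. Hnf4a and the stellate cell gene Lrat were at 0 counts in every library, and Alb, the leukocyte gene Ptprc and the endothelial gene Cdh5 did not exceed 4 counts in any. Lyz2 had at most 1 count and Pecam1 at most 9, and the macrophage gene Cd68 had 47 to 91. Afp, a defining hepatoblast gene, reached at most 14 counts. Col1a1 and Acta2, genes of mesenchymal cells, were high in all groups, and Acta2 was 14-fold higher with sorafenib at 48 hours and 2.63-fold higher at 7 days (edgeR FDR of 2.4e-17 and 3.69e-11), although it lies after the step. FDR is the p-value of edgeR's quasi-likelihood F-test adjusted over all genes tested by the method of Benjamini and Hochberg. The part of these markers in the clock gene results was not tested. Reads were still counted for Trp53, with group means of 1843.5 to 3690.0 normalized counts, and what remains of that gene in the line is not described in the sources used here.

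The proximal promoters of the clock genes were searched on both strands for the sequences through which these factors act: the E-box CACGTG, the related E-prime box CACGTT, the D-box in its forms TTATGTAA and TTACGTAA, the cAMP response element TGACGTCA with its core TGACG, and the ROR element. RefSeq windows of 250 bases before to 50 bases after the start site on GRCm38.p6 were matched for 9 of the 10 genes, giving 12 windows, and Per2 was the gene without one. The 250 upstream bases of 4 genes are shown as examples: Ciart and Per3 hold more than one match of a kind, and Cry1 and Per1 hold an E-box. They lie at chr3:95882229-95882478 on the minus strand (Ciart), chr10:85185055-85185304 on the minus strand (Cry1), chr11:69098699-69098948 on the plus strand (Per1, the upstream of 2 windows) and chr4:151044666-151044915 on the minus strand (Per3). Capitals mark the E-box in Ciart, Cry1 and Per1, the E-prime box read on the other strand (AACGTG) in Cry1, and the D-box in Per3.
Ciart: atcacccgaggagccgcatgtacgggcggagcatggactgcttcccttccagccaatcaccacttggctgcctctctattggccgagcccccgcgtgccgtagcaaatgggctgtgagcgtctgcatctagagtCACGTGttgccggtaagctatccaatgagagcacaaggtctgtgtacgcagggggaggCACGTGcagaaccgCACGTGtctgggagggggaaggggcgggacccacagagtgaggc
Cry1: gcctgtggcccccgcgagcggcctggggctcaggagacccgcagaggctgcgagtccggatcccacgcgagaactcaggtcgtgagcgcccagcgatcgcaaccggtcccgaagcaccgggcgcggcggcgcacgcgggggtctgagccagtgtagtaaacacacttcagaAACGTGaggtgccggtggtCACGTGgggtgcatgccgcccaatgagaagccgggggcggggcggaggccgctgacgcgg
Per1: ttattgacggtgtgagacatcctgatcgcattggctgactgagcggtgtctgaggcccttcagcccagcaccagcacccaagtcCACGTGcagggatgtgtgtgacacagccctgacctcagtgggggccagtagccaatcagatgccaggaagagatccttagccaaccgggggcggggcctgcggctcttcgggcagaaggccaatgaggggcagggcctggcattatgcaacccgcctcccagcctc
Per3: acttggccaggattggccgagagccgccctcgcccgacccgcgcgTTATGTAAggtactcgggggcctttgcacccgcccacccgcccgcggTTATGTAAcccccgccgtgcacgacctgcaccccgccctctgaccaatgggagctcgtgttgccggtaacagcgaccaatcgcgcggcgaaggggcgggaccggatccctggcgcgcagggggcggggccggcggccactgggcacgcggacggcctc

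Ciart held 3 E-boxes, whose first bases were at positions -116, -58 and -44 from the start site. Of all 32851 windows, 7.15% held an E-box and 29 windows (0.0883%) held at least 3. Cry1 held an E-box at -60 and an E-prime box at -79, and Per1 an E-box at -166, while the E-prime box, found in 4.68% of windows, was also present in Cry2 at -166 and in Nr1d1 at -28. Per3 held a pair of D-boxes at -205 and -158, and 8 windows in all (0.0244%) held as many, against 1.06% with any D-box. The D-box forms were narrowed after the windows had been seen, so these D-box shares only describe the forms chosen. The windows of Clock, Nr1d2 and Dbp held none of the sequences. A full cAMP response element, present in 1.79% of windows, was in none of the 12, and its core TGACG, present in 20.8%, was found in Per1, Cry1 and Cry2. The ROR element, present in 0.773% of windows, was in none of the 12. A match describes letters within a window and is no evidence that a factor binds there, and regulatory sequence outside these windows was not searched.

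Most of the clock genes differed between the sorafenib and DMSO libraries at both times, and not in one direction. At 48 hours 9 of the 10 differed between sorafenib and DMSO at an FDR under 0.05, against 54.6% of all genes tested. Clock, Per2, Cry1, Ciart and Nr1d2 were the 5 higher genes, against 26.9% of all genes, Per1, Per3, Nr1d1 and Dbp the 4 lower ones, against 27.7%, and Cry2 did not pass. At 7 days 9 of the 10 differed again, against 56.8% of all genes, with Cry2 now among the 6 that were higher (28.9% of all genes), 3 lower (27.9%) and Per1 the one that did not pass. The median log2 fold change of the 10 genes was 0.19 at 48 hours and 0.49 at 7 days, beside -0.05 and 0.02 over all genes tested. Groups did not overlap for 9 of the 10 genes at 48 hours (48% of all genes), 5 higher (23.1%) and 4 lower (24.9%). At 7 days they did not overlap for 8 of the 10 (56.8% of all genes), 5 higher (28.5%) and 3 lower (28.4%). In a fit of the 12158 genes with at least 10 counts in every library, all 10 clock genes among them, calls were more common. They made up 75.6% of those genes at 48 hours and 75.2% at 7 days. The sizes and directions are given gene by gene, since a call alone was common among all genes.

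**Figure D1:**
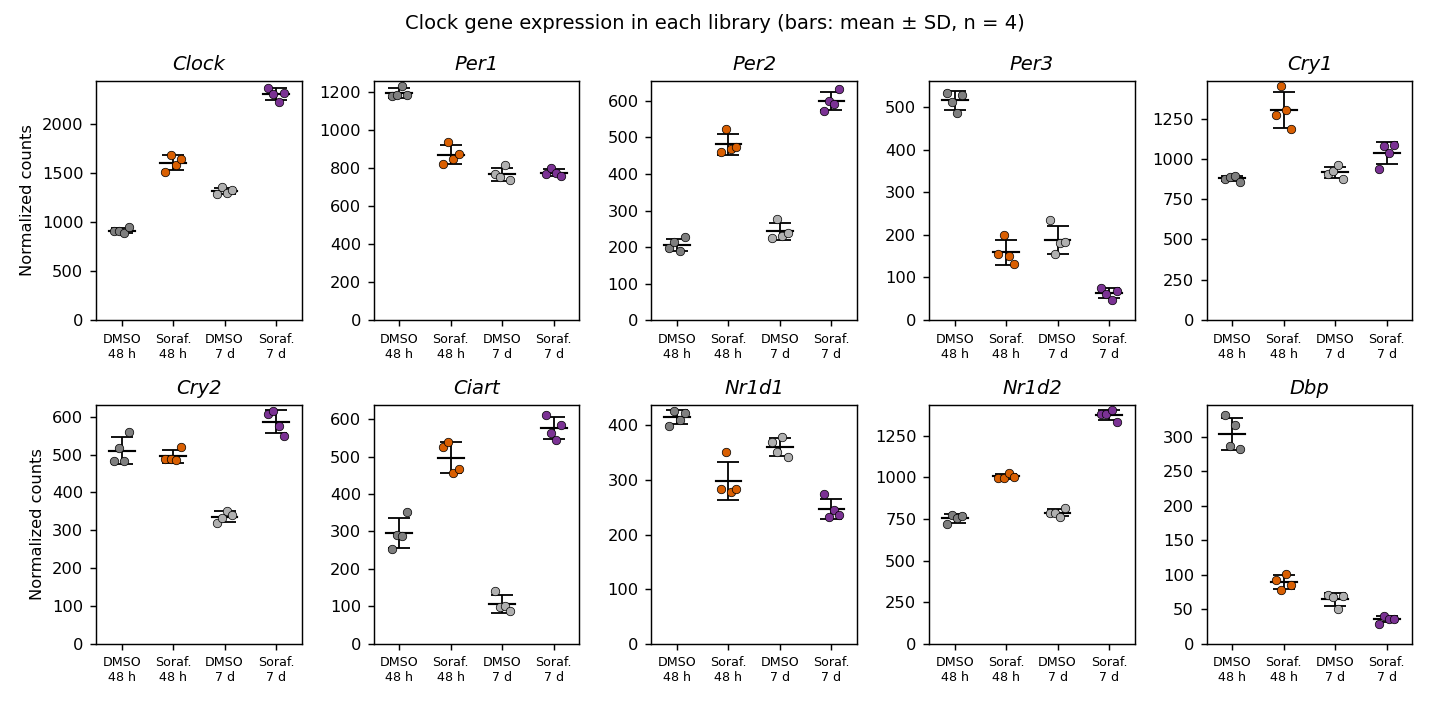
Normalized counts of each clock gene in every library (vertical axis, linear from 0) by group (horizontal axis, n = 4 libraries each). Points are libraries and bars the mean ± SD. The sorafenib libraries lie above their DMSO libraries for Clock, Per2, Ciart and Nr1d2 and below them for Per3, Nr1d1 and Dbp at both times.

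Clock, which encodes the DNA-binding partner of BMAL1, lies at chr5:76342860-76452846 on the minus strand of GRCm39. In DMSO at 48 hours its 4 libraries measured 907.1, 906.6, 890.2 and 947.1 normalized counts, and with sorafenib 1508.4, 1684.5, 1579.0 and 1643.4. At 7 days the DMSO libraries measured 1281.2, 1355.2, 1300.0 and 1324.5 and the sorafenib libraries 2363.3, 2309.7, 2227.7 and 2318.6. Every sorafenib library was above every DMSO library of its time, and all 8 libraries of 7 days were above the 4 DMSO libraries of 48 hours. The log2 fold change was 0.81 ± 0.040 (SE) at 48 hours and 0.81 ± 0.038 at 7 days, with an edgeR FDR of 5.26e-13 and 2.63e-13. The difference of the responses was -0.00, with a 95% interval of -0.12 to 0.11. Clock rose 1.76-fold at 48 hours and 1.75-fold at 7 days, on a DMSO level that was itself 0.53 higher (log2) at 7 days (FDR of 8.29e-10). Of its exon bases, 11.9% overlap Tmem165 on the other strand, a gene with log2 fold changes of 0.01 and -0.16.

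The Period genes, whose proteins inhibit CLOCK and BMAL1, split in 3 ways. Per2 (chr1:91343700-91387069, minus strand) measured 197.5, 212.5, 189.9 and 226.4 normalized counts in DMSO at 48 hours and 461.6, 523.2, 467.3 and 473.6 with sorafenib. At 7 days it measured 226.0, 276.7, 230.5 and 237.4 in DMSO and 573.7, 598.6, 593.0 and 632.5 with sorafenib. Sorafenib libraries were all above DMSO libraries at both times, with no overlap. Per2 rose 2.32-fold at 48 hours and 2.46-fold at 7 days (edgeR FDR of 1.31e-11 and 1.53e-12). The responses differed by 0.09 on the log2 scale, with a 95% interval of -0.13 to 0.31 and an FDR of 0.545. Among the 10 genes, Per2 had the largest rise at 48 hours.

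Per3 (chr4:151081373-151129140, minus strand), a Period gene that is not needed for the rhythm itself, moved the other way. Its DMSO libraries of 48 hours measured 534.7, 513.6, 487.0 and 528.8 normalized counts and its sorafenib libraries 155.7, 199.6, 149.4 and 130.6. At 7 days the values were 234.6, 154.2, 180.4 and 182.7 in DMSO and 75.4, 60.9, 48.1 and 68.9 with sorafenib. No sorafenib library reached a DMSO library of its time, and the ranges of DMSO at 7 days and sorafenib at 48 hours overlapped. Per3 fell 3.29-fold at 48 hours and 2.98-fold at 7 days (log2 fold change -1.72 ± 0.119 and -1.57 ± 0.146, edgeR FDR of 1.33e-10 and 1.2e-08). A further fall of 2.76-fold separated DMSO at 7 days from DMSO at 48 hours (FDR of 9.86e-10). Without Sorafenib_48h replicate 2, the highest of its group, the log2 fold change at 48 hours was -1.83.

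Per1 (chr11:68986035-69002300, plus strand), an immediate responder to cAMP and glucocorticoid signals, fell with sorafenib at 48 hours and did not pass the test at 7 days. At 48 hours the DMSO libraries measured 1176.9, 1182.5, 1231.2 and 1184.7 normalized counts and the sorafenib libraries 819.4, 936.0, 848.0 and 871.1. At 7 days they measured 768.7, 751.3, 812.3 and 734.6 in DMSO and 768.3, 798.3, 773.2 and 758.4 with sorafenib. The 48-hour groups stood apart and the 7-day groups overlapped almost fully, with DMSO at 7 days below every library of 48 hours. The log2 fold change was -0.46 ± 0.044 at 48 hours (FDR of 1.9e-08) and 0.02 ± 0.045 at 7 days (FDR of 0.797), and the difference between the responses, 0.48, passed the test itself (edgeR FDR of 4.5e-06). The 95% interval at 7 days ran from -0.08 to 0.11.

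The Cryptochrome genes encode the strongest inhibitors of CLOCK and BMAL1, and their responses shifted in opposite directions between the times. Cry1 (chr10:84967560-85021252, minus strand) measured 876.8, 889.2, 894.3 and 858.9 normalized counts in DMSO and 1272.6, 1453.2, 1304.9 and 1185.7 with sorafenib at 48 hours. At 7 days the values were 903.9, 924.3, 959.0 and 876.5 in DMSO and 937.0, 1080.2, 1036.4 and 1085.0 with sorafenib. The groups stood apart at 48 hours and overlapped at 7 days, where sorafenib replicate 1 lay within the DMSO range. The log2 fold change was 0.57 ± 0.057 at 48 hours and 0.18 ± 0.056 at 7 days (FDR of 3.61e-08 and 0.011), and the response was smaller at 7 days by 0.39 on the log2 scale (value -0.39, edgeR FDR of 0.000589).

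Cry2 (chr2:92233894-92264474, minus strand) measured 483.9, 517.1, 481.9 and 560.0 normalized counts in DMSO and 488.3, 488.4, 484.4 and 519.0 with sorafenib at 48 hours. At 7 days it measured 320.0, 331.5, 352.2 and 341.3 in DMSO and 608.5, 614.0, 575.5 and 549.9 with sorafenib. The 48-hour groups overlapped, and at 7 days the lowest sorafenib library was above the highest DMSO library. Its log2 fold change was -0.05 at 48 hours, with a 95% interval of -0.17 to 0.08, and 0.80 ± 0.057 at 7 days (edgeR FDR of 2.12e-10). The difference of the responses was 0.85 (FDR of 6.15e-08), the sum of a DMSO level lower at 7 days by 0.60 (value -0.60) and a sorafenib level higher by 0.25.

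Ciart (chr3:95785815-95789991, minus strand), whose product CHRONO represses CLOCK and BMAL1, had the largest rise of the 10 genes at 7 days. The DMSO libraries of 48 hours measured 252.2, 290.6, 287.9 and 350.8 normalized counts and the sorafenib libraries 524.8, 539.8, 456.8 and 465.6. At 7 days DMSO libraries measured 140.6, 96.8, 100.1 and 88.1 and sorafenib libraries 611.9, 562.0, 544.9 and 584.3. Sorafenib libraries were above DMSO libraries at both times, and the DMSO libraries of 7 days were the lowest of all 16. Ciart was 1.67-fold higher with sorafenib at 48 hours and 5.45-fold higher at 7 days (log2 fold change 0.74 ± 0.101 and 2.45 ± 0.113, edgeR FDR of 2.99e-06 and 2.16e-13). The difference between the responses was 1.71 (FDR of 2.79e-08). Between 48 hours and 7 days the DMSO level fell 2.81-fold (FDR of 2.56e-09), while the sorafenib level differed by 0.22 on the log2 scale and did not pass (FDR of 0.0796). The lncRNA C920021L13Rik overlaps 9.59% of its exon bases on the other strand.

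The REV-ERB genes moved in opposite directions. Nr1d1 (chr11:98658752-98666188, minus strand) measured 398.8, 426.8, 410.4 and 423.4 normalized counts in DMSO and 283.4, 350.8, 277.9 and 282.8 with sorafenib at 48 hours. At 7 days the values were 368.7, 351.2, 378.1 and 342.2 in DMSO and 273.3, 231.5, 245.8 and 236.1 with sorafenib. Sorafenib libraries were below DMSO libraries at both times, with Sorafenib_48h replicate 2 the nearest to the DMSO range. The fall was 1.4-fold at 48 hours and 1.46-fold at 7 days (edgeR FDR of 8.09e-06 and 1.51e-06). Leaving that library out moved the 48-hour log2 value from -0.48 to -0.56. Of its exon bases 52.3% overlap Thra, the thyroid hormone receptor gene on the other strand. Thra had group means of 1954.7 to 5911.3 normalized counts and log2 fold changes of -0.57 and -0.98. Libraries came from a stranded kit, but the strand setting of the counting is not given in the sources used here, so how reads in the shared bases were assigned was not tested.

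Nr1d2 (chr14:4230545-4266624, plus strand) rose. It measured 717.5, 773.0, 755.5 and 769.9 normalized counts in DMSO and 996.2, 999.5, 1025.0 and 1004.0 with sorafenib at 48 hours. At 7 days it measured 785.0, 788.9, 762.2 and 815.3 in DMSO and 1381.3, 1379.0, 1402.9 and 1334.9 with sorafenib. Groups were well apart at both times, and the DMSO libraries of the 2 times overlapped. The log2 fold change was 0.42 ± 0.038 at 48 hours and 0.80 ± 0.037 at 7 days (FDR of 9.2e-09 and 1.76e-13), and the 7-day response was larger by 0.39 (edgeR FDR of 6.78e-06).

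Dbp (chr7:45354512-45359627, plus strand) and Per3 had the largest falls of the 10 genes at 48 hours. In DMSO its libraries of 48 hours measured 331.4, 287.2, 316.5 and 282.6 normalized counts, and with sorafenib 92.6, 78.6, 100.9 and 85.2. At 7 days they measured 70.3, 67.7, 50.1 and 68.6 in DMSO and 29.2, 39.8, 35.9 and 36.4 with sorafenib. Groups did not overlap at either time, and all 12 libraries other than DMSO at 48 hours were at 100.9 or below. Dbp fell 3.37-fold with sorafenib at 48 hours and 1.79-fold at 7 days (log2 fold change -1.75 ± 0.102 and -0.84 ± 0.142, edgeR FDR of 8.41e-12 and 3.86e-05). The fall was smaller at 7 days by 0.91 on the log2 scale (FDR of 0.0004). In DMSO alone it fell 4.75-fold between 48 hours and 7 days (FDR of 5.67e-13). Sphk2, which overlaps 15.5% of the exon bases of Dbp on the other strand, had log2 fold changes of -0.21 and -0.02.

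**Figure D2:**
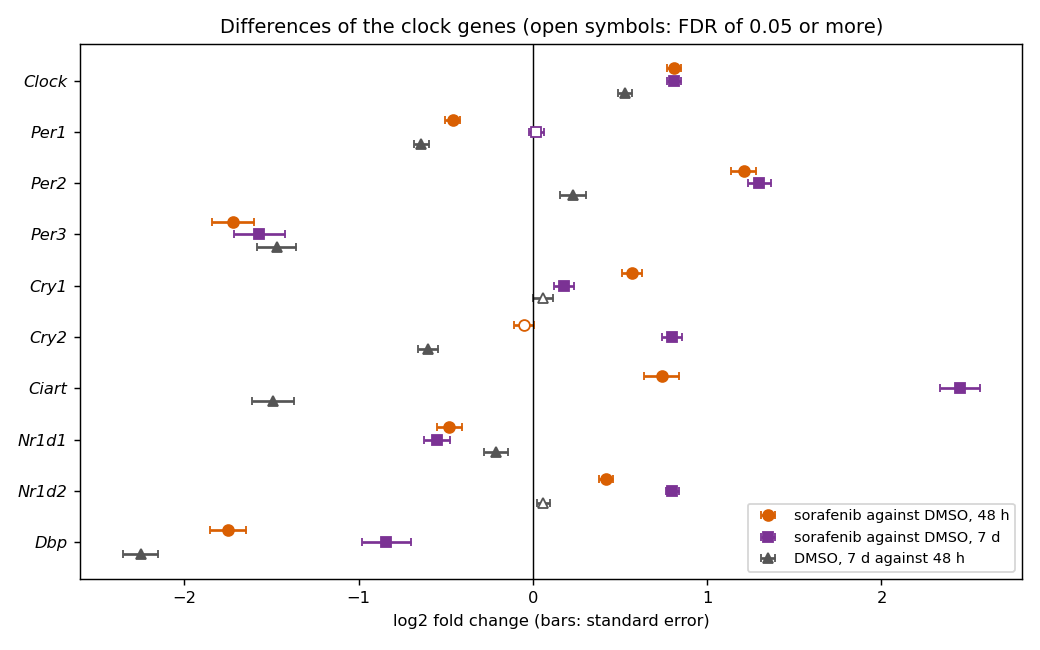
Log2 fold change of each clock gene (horizontal axis) for sorafenib against DMSO at 48 hours (circles) and 7 days (squares) and for DMSO at 7 days against 48 hours (triangles). Bars are standard errors and open symbols did not pass an FDR of 0.05. Clock, Per2, Cry1, Ciart and Nr1d2 lie to the right and Per3, Nr1d1 and Dbp to the left in both sorafenib comparisons. Dbp, Ciart and Per3 have the leftmost triangles.

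The clock genes also differed between the times in the vehicle alone. Between DMSO at 48 hours and DMSO at 7 days 8 of the 10 genes differed, against 49.4% of all genes. In the fit of genes with at least 10 counts in every library the share was 71%. Clock (0.53 on the log2 scale) and Per2 (0.23) were the 2 that were higher at 7 days (23.9% of all genes). Per1 (-0.64), Per3 (-1.47), Cry2 (-0.60), Ciart (-1.49), Nr1d1 (-0.21) and Dbp (-2.25) were the 6 that were lower (25.5%). Cry1 (0.06) and Nr1d2 (0.06) did not pass. The median of the 10 genes was -0.40, beside -0.01 over all genes, and groups did not overlap for 7 genes (50.8% of all genes), 1 higher (24.9%) and 6 lower (25.9%). Per2, with an FDR of 0.0153, no longer passed without DMSO_7d replicate 2 (FDR of 0.0823), without DMSO_48h replicate 3 (0.0616) or with total counts as the scaling (0.0815). Nr1d1, with an FDR of 0.0163, gave 0.0502 without DMSO_7d replicate 4. Because a time point is also a harvest, days in culture and the hour or density at harvest cannot be told apart.

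Under sorafenib 9 of the 10 genes differed between 48 hours and 7 days, against 39.7% of all genes, and groups did not overlap for any of the 10 (35.8% of all genes), 5 higher (16.1%) and 5 lower (19.7%). Of genes with at least 10 counts in every library, 59% were called. At 7 days Clock (0.52 on the log2 scale), Per2 (0.32), Cry2 (0.25) and Nr1d2 (0.45) were the 4 called higher (17.5% of all genes). Per1 (-0.16), Per3 (-1.32), Cry1 (-0.33), Nr1d1 (-0.27) and Dbp (-1.33) were the 5 called lower (22.3%), and Per1 did not pass with total counts as the scaling (FDR of 0.0575). Ciart did not pass (0.22, FDR of 0.0796), and passed in 10 of the settings tried with log2 values of 0.22 to 0.27, among them without Sorafenib_48h replicate 2 (FDR of 0.00622). This comparison shares its libraries with the sorafenib comparisons above, so the values are given side by side and are not independent of them.

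The difference of the 2 sorafenib responses, tested as an interaction of drug and time, passed for 6 of the 10 genes, against 36.8% of all genes. It passed for 56.2% of genes with at least 10 counts in every library, a share near that of the clock genes. The 7-day response was the higher one for 5, Ciart (1.71), Dbp (0.91), Cry2 (0.85), Per1 (0.48) and Nr1d2 (0.39), against 15.5% of all genes, and the lower one for Cry1 (-0.39), against 21.3%. Over all genes 3162 were higher and 4353 lower, and with total counts as the scaling the split was 4125 and 3292, while the 6 clock genes kept their directions. For Dbp this means a smaller fall at 7 days from a DMSO level that was already low. For Clock, Per2, Per3 and Nr1d1 the difference did not pass, with 95% intervals of -0.12 to 0.11, -0.13 to 0.31, -0.28 to 0.57 and -0.29 to 0.16. The interval was widest for Per3 and narrowest for Clock.

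Levels can be compared between genes only per length, so normalized counts were divided by the kilobases of exon of each gene. Cry1 had the highest level of the 10 genes in DMSO at 48 hours, with 177 ± 3.16 (SD, n = 4) normalized counts per kilobase, followed by Per1 with 156 ± 3.28. Per2 had the lowest, with 31.5 ± 2.47. Nr1d1 (123 to 132) and Ciart (96.7 to 135) overlapped in their ranges, as did Dbp (81.4 to 95.5) and Nr1d2 (79.3 to 85.4). Cry2 (56.1 to 65.2) was above Clock (51.6 to 54.9), which was just above Per3 (46.4 to 51). With sorafenib at 7 days Ciart, at 221 ± 11.1, and Cry1, at 208 ± 13.8, overlapped at the top, and Per3, at 6.03 ± 1.12, was below Dbp, at 10.2 ± 1.27, at the bottom. Per3 was also the lowest of the 10 in the other sorafenib group (15.1 ± 2.78). The order depends in part on the length used, and for Nr1d1 the part of reads in bases shared with Thra was not tested. With the longest transcript, levels in DMSO at 48 hours were more than 1.5 times as high for Cry2 (59.5 to 123), Dbp (87.7 to 161), Clock (52.9 to 92.1), Per3 (49.2 to 85.1) and Nr1d2 (83.3 to 132), and Dbp (150 to 175) then lay above Nr1d2 (126 to 136) in every library. Cry1 stayed highest and Per2 lowest in that group.

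Within single libraries some related genes exchanged rank and others did not. Cry1 lay above Cry2 and Per2 below Per1 in all 16 libraries, with either length. Per kilobase of exon these ratios were 2.65 to 5.13 and 0.18 to 0.973. With the longest transcript they were 1.68 to 3.26 and 0.163 to 0.884. The level of Per2 per kilobase was 0.59 to 0.684 of that of Per3 in DMSO at 48 hours and 4.19 to 5.79 times that of Per3 with sorafenib. At 7 days the ratio was 1.54 to 2.87 in DMSO and 12.2 to 19.7 with sorafenib. Nr1d2 was below Nr1d1 in all 8 DMSO libraries (0.645 to 0.66 at 48 hours and 0.722 to 0.853 at 7 days) and above it in all 8 sorafenib libraries (1.02 to 1.32 and 1.81 to 2.13). When the longest transcript was used as the length, the ratio in DMSO at 7 days became 1.02 to 1.2, so the rank of the REV-ERB genes there depends on the length chosen, and the ratio of Per2 to Per3 in that group was above 1 in 3 of 4 libraries. Of the exon bases of Nr1d1, 52.3% overlap Thra. Whether the REV-ERB genes exchange rank without the shared bases was not tested in any group. The ratio of Dbp to its competitor Nfil3 was 0.83 to 0.901 in DMSO at 48 hours and 0.0629 to 0.0889 with sorafenib, and 0.156 to 0.237 and 0.0243 to 0.032 at 7 days.

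**Figure D3:**
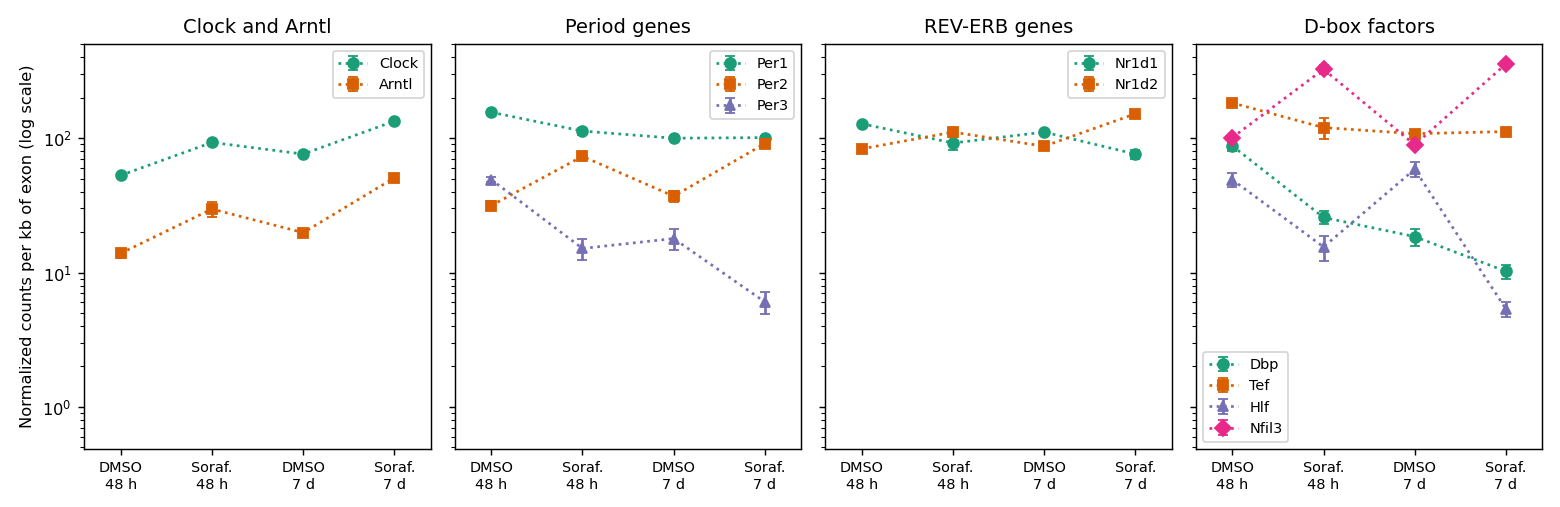
Normalized counts per kilobase of exon (vertical axis, log scale) in the 4 groups (horizontal axis), as mean ± SD of 4 libraries. Dotted lines join the same gene and are not time courses. Per2 and Per3 cross, Nr1d1 and Nr1d2 cross between DMSO and sorafenib, and Nfil3 lies above Dbp in every group. How reads in the bases that Nr1d1 shares with Thra were assigned was not tested.

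The partners of CLOCK were described from a list of the positive arm. Of its 4 genes, 3 rose and 1 did not pass at 48 hours, and all 4 were called higher at 7 days, with Npas2 resting on single reads. Beside the counts of this list and of those that follow stand the shares of all genes, 26.9% higher and 27.7% lower at 48 hours and 28.9% higher and 27.9% lower at 7 days. Arntl, annotated as Bmal1 and encoding the partner of CLOCK, rose 2.14-fold at 48 hours and 2.56-fold at 7 days (edgeR FDR of 3.84e-10 and 1.92e-12). Arntl2, a paralog of Arntl, rose 2.25-fold and 4.33-fold (FDR of 7.33e-10 and 1.62e-13). Npas2, which can stand in for CLOCK, had 5, 7, 3 and 2 raw counts with sorafenib at 7 days, 0, 1, 1 and 0 in DMSO at 48 hours and none in the other 8 libraries, so no fold is given. The level of Clock per kilobase of exon was 2.55 to 4.06 times that of Arntl over the 16 libraries, and 1.79 to 2.85 times with the longest transcript.

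Of the 8 genes of the negative arm, 6 are among the 10 clock genes, and the list as a whole had 4 higher and 3 lower at 48 hours and 5 higher and 2 lower at 7 days. Its other genes, Bhlhe40 and Bhlhe41, encode the E-box repressors DEC1 and DEC2. Bhlhe40 fell by 0.24 and 0.75 on the log2 scale (log2 fold change -0.24 and -0.75, edgeR FDR of 0.000393 and 1.51e-10), and Bhlhe41 rose by 0.20 and 1.30 (FDR of 0.0135 and 3.33e-12). Without Sorafenib_48h replicate 2, Bhlhe41 did not pass at 48 hours (0.14, FDR of 0.0859) and the list had 3 higher.

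Of the 4 genes described from the nuclear receptor loop, Nr1d2 was higher and Nr1d1 lower at both times, and Rora was also higher at 7 days. Rora, an activator of Arntl, did not pass at 48 hours (-0.39, FDR of 0.0992) and was 9.51-fold higher at 7 days (FDR of 4.18e-10). Its level was low throughout: 36.2 to 49.0 normalized counts in DMSO at 48 hours, 27.6 to 40.7 with sorafenib, 3.5 to 9.4 in DMSO at 7 days and 50.7 to 75.7 with sorafenib. The 7-day difference thus went with a DMSO level that was 6.99-fold lower than at 48 hours. Rorb had at most 6 raw counts in any library.

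The list of D-box factors holds activators and their competitor. At 48 hours 3 of the 4 genes, Dbp, Tef and Hlf, were lower and Nfil3 was higher, and at 7 days Dbp and Hlf were lower, Nfil3 higher and Tef did not pass. Hlf, like Dbp a PAR bZIP activator, fell 3.16-fold at 48 hours and 10.9-fold at 7 days (edgeR FDR of 9.02e-10 and 5.65e-14). Nfil3 measured 483.0 to 527.8 normalized counts in DMSO and 1488.7 to 1784.3 with sorafenib at 48 hours, and 422.8 to 456.6 and 1717.6 to 1833.2 at 7 days, a rise of 3.22-fold and 3.99-fold (FDR of 3.38e-16 and 2.12e-17). Tef fell 1.52-fold at 48 hours (FDR of 3.08e-06) and had a log2 fold change of 0.05 at 7 days (FDR of 0.621). Tef lies after the step in Sorafenib_48h replicate 2, which measured 722.8 against 1029.8 to 1143.5 in the other libraries of the group, all of them below the DMSO range of 1464.0 to 1584.8.

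The remaining lists moved in both directions. Of 15 kinases, ligases and other regulators of PER and CRY, 5 were higher and 6 lower at 48 hours and 5 higher and 7 lower at 7 days, with list medians of -0.06 and -0.11. Of these, 7 lie after the step, and without Sorafenib_48h replicate 2 the counts at 48 hours were 6 higher and 7 lower, with a median of 0.02. Usp2, a deubiquitinase of clock proteins and itself a clock output, fell most, by 1.17 and 1.70 on the log2 scale (log2 fold change -1.17 and -1.70, edgeR FDR of 3.01e-09 and 3.3e-11). Btrc, which helps to degrade PER, had -0.11 (not passed) and 0.49 and Usp7, which stabilizes CRY, -0.33 and -0.47, and both lie after the step. Of 10 clock-controlled outputs 9 were tested, with 3 higher and 4 lower at 48 hours and 4 higher and 3 lower at 7 days. Among them Por, the electron donor of microsomal P450 enzymes, fell 2.88-fold and 2.48-fold, Alas1, the first enzyme of haem synthesis, did not pass at 48 hours (0.04) and was 1.88-fold higher at 7 days, and Tspan4 had 0.28 and -0.19. The 4 higher outputs at 7 days include Npas2, counted in the positive arm too, with 2 to 7 raw counts per sorafenib library.

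The list of cAMP and glucocorticoid response genes, which holds Per1, was included because these signals reset the clock. Of its 10 genes, 2 were higher and 5 lower at 48 hours and 6 higher and 3 lower at 7 days. As many as 7 of the 10, Sik1 and Tsc22d3 among them, lie after the step, and without Sorafenib_48h replicate 2 the counts at 48 hours were 3 higher and 5 lower. Fos, an immediate early gene, fell 3.9-fold at 48 hours and 1.32-fold at 7 days, and Sik1, a kinase induced by cAMP, fell 1.82-fold and 3.56-fold. Tsc22d3, a glucocorticoid-induced gene, rose 2-fold and 3.42-fold (edgeR FDR of 9.1e-09 and 2.01e-12). In the same list Fkbp5 was lower at both times (log2 fold change -0.53 and -0.81). Sgk1 and Klf9 did not pass at 48 hours (0.01 each) and were higher at 7 days (1.65 and 0.57). Dusp1 was higher at both times (0.61 and 1.67). Nr4a1 was lower at 48 hours (-0.34) and higher at 7 days (0.64). Crem did not pass at 48 hours (-0.07) and was higher at 7 days (0.54). Fkbp5, Klf9, Dusp1, Nr4a1 and Crem lie after the step. At 48 hours Per1, Fos and Sik1 were lower and Tsc22d3 higher, and at 7 days Per1 was the one of these 4 that did not pass.

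**Figure D4:**
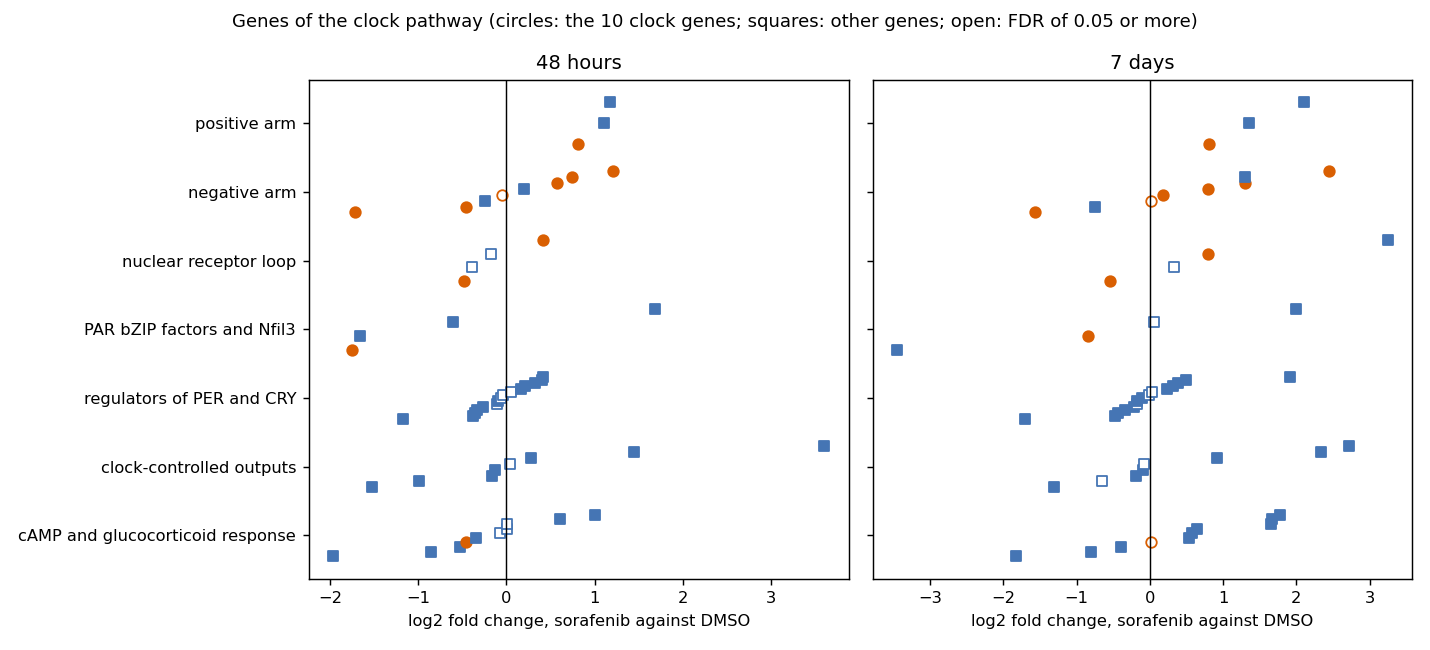
Log2 fold change of sorafenib against DMSO (horizontal axis) for the genes of 7 clock pathway lists (rows) at 48 hours and 7 days. Circles are the 10 clock genes, squares the other genes and open symbols did not pass an FDR of 0.05, and Npas2 is not drawn because its counts were near 0. Genes of the positive arm lie to the right at both times, and the D-box factors spread from Hlf and Dbp at the left to Nfil3 at the right.

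The genes with the most similar levels were sought for each clock gene among 10646 genes (mean normalized count of 100 or more), by Pearson correlation of log2 values over the 16 libraries. The best match reached 0.962 to 0.997 over the 10 clock genes, and those of 4 are named. These libraries fall into 4 groups, so a high value says that group means are ordered alike. Clock was most like Anxa2 (0.997), Ankrd50 (0.997) and Plk2 (0.996), which rose in the order DMSO at 48 hours, DMSO at 7 days, sorafenib at 48 hours and sorafenib at 7 days. Per2 was most like Tbc1d19 (0.995), Rab3b (0.994) and Trim16 (0.993). Dbp was most like Slc16a3 (0.988), Rfx5 (0.985) and Fcgrt (0.981), all highest in DMSO at 48 hours and lowest with sorafenib at 7 days. Nr1d1 was most like Gtf3c2 (0.989), Zfp334 (0.977) and Cic (0.975).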

How the data were processed

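Messenger RNA libraries made with a stranded kit were, per the labels and the methods of the study, aligned by the authors to GRCm39 with STAR 2.7.1a. featureCounts 2.0.6 (Subread) and DESeq2 1.40.2 are named among the tools in the submitters' processing notes, and the gene annotation and strand setting are not given in the sources used here. The deposited table holds raw counts of reads per gene for 16 libraries, with no normalization by the authors. Groups and replicate numbers came from the labels. The 10 clock genes and the pathway lists were chosen with earlier results of these data known, and 1 gene of the lists is not reported here.

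Genes with at least 10 counts over all libraries (20444 of 40840) were fitted together in 1 model with 1 coefficient per group (edgeR 4.0.16 in R 4.3.3, TMM scaling, glmQLFit and glmQLFTest), and p-values were adjusted over all genes tested with the Benjamini-Hochberg method. The analysis was tested on simulated data. Normalized counts are counts divided by the TMM-adjusted library size and multiplied by the geometric mean of these sizes over the 16 libraries. Intervals are at 95% with 12 degrees of freedom. An exact two-sided permutation test of 4 against 4 libraries cannot give a p below 0.0286, which every pair of groups without overlap reached. Named genes were the 10 clock genes, the other genes of the positive arm, nuclear receptor and D-box lists, and of each other list up to 3 other genes with the largest called change in either drug comparison, where their mean normalized count reached 100, with genes overlapping the clock genes added. Fkbp5, Sgk1, Klf9, Dusp1, Nr4a1 and Crem were named outside this rule, so that the cAMP and glucocorticoid list is given whole. Positions and exon lengths were taken from GENCODE release M39 on GRCm39, where 32253 genes of the table were matched by symbol. The D-box forms searched were narrowed to 2 after the windows had been seen. Alternatives were limma 3.58.1 voom with quality weights, DESeq2 1.42.0, other scalings and filters, a replicate block, an offset for the step in 1 library, fits on 8 libraries and each of 16 libraries left out. Total counts bound the precision, and counting error is part of the spread between libraries.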

Additional observations from a re-analysis of the deposited data

Results flagged for a closer look

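Dixon's test at the 95% level was applied to 116 sets of 4 libraries. Each clock gene and each named gene of the pathway lists gave a set in each of 4 groups. The genes that overlap clock genes were left out, as were Fkbp5, Sgk1, Klf9, Dusp1, Nr4a1 and Crem. In 13 sets a library stood far from the other 3, where chance alone gives about 5% of sets. Among the clock genes these were Per1 in DMSO_48h replicate 3 (1231.2 normalized counts, the others 1176.9 to 1184.7), Cry2 in Sorafenib_48h replicate 4 (519.0, the others 484.4 to 488.4), Nr1d1 in Sorafenib_48h replicate 2 (350.8, the others 277.9 to 283.4) and Dbp in DMSO_7d replicate 3 (50.1, the others 67.7 to 70.3). Among the other genes they were Arntl2 in DMSO_48h replicate 3 (121.5) and in Sorafenib_7d replicate 2 (229.0), Tef in DMSO_7d replicate 1 (848.8), Bhlhe41 in Sorafenib_7d replicate 1 (415.1), Usp2 in DMSO_48h replicate 3 (382.8), Fos in Sorafenib_7d replicate 3 (170.6) and Sik1 in DMSO_7d replicate 4 (1579.5). In Sorafenib_48h replicate 2, Usp7 was low (3369.1, the others 5155.1 to 5387.0) and Tspan4 high (2870.1, the others 2480.4 to 2518.4), and Usp7 lies after the step in that library and Tspan4 before it.

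The sorafenib response differed between 7 days and 48 hours for 21 of these genes by the interaction term of edgeR's quasi-likelihood test. Beside the 6 clock genes Ciart (1.71), Dbp (0.91), Cry2 (0.85), Per1 (0.48), Nr1d2 (0.39) and Cry1 (-0.39), the log2 response was higher at 7 days for Rora (3.64), Fos (1.57), Bhlhe41 (1.10), Arntl2 (0.94), Alas1 (0.87), Tsc22d3 (0.78), Tef (0.66), Btrc (0.60), Nfil3 (0.31) and Por (0.21). It was lower for Hlf (-1.79), Sik1 (-0.97), Usp2 (-0.54), Bhlhe40 (-0.51) and Tspan4 (-0.47). Npas2 passed too and is left out of that count because all libraries of 2 groups were at 0, and of the overlapping genes Thra (-0.41), Sphk2 (0.19) and Tmem165 (-0.17) passed. Tef, Btrc, Sik1 and Tsc22d3 lie after the step in Sorafenib_48h replicate 2, and without that library their log2 values at 48 hours were -0.49, 0.02, -0.72 and 1.10, against -0.61, -0.11, -0.86 and 1.00 with it.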

How the results depend on the processing

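Over all comparisons and alternatives, 1188 single-gene values of the 10 clock genes kept their direction and their side of the threshold, 17 changed sign, 10 passed where they had not and 5 no longer passed. Adding the requirement of an absolute log2 value of 1 or more left 3 clock genes at 48 hours (18% of all genes), 3 at 7 days (20.6%), 1 for the difference of the responses (9.61%), 3 for DMSO over time (11%) and 2 for sorafenib over time (8.45%). The changes of sign were all in values near 0 that passed in no setting. For Clock the difference of the responses was 0.01 with DESeq2 size factors and with DESeq2, 0.09 with total counts, 0.06 with at least 10 counts in every sample and 0.04 with the offset for the step. With 1 library left out it ran from -0.02 to 0.04, with 0.0054, 0.01, 0.02 and 0.03 between. For Nr1d1 it was 0.03 with total counts and 0.01 without Sorafenib_48h replicate 2, and for Per1 at 7 days the value was -0.0049 without DMSO_7d replicate 4 and -2.1e-05 without Sorafenib_7d replicate 2. Per1 under sorafenib over time gave an FDR of 0.0575 with total counts. Total counts moved the median of all genes to -0.12 at 48 hours and to 0.12 for the difference of the responses. The level of Per1 in DMSO at 48 hours, 156 normalized counts per kilobase, was 178 with the longest transcript as length and 160 with total counts, and Cry2, Dbp, Clock, Per3 and Nr1d2 moved more with the length. With the replicate block the counts of clock genes called were 9, 9, 6, 8 and 9, as without it, and no single call changed. Replicates of the same number had correlations of -0.048 to 0.011 at 48 hours and -0.007 to 0.123 at 7 days over 10646 genes. Those of different numbers had -0.039 to 0.071 and -0.158 to 0.110. The ranges overlapped and the numbers were not taken as pairs, although the highest value at 7 days was of the same number. Depth limits Dbp and Per3 most, with 26 to 49 and 55 to 75 raw counts per library under sorafenib at 7 days.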
